A study of Crinum x powellii with 21 samples.

Results

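The genes described here are the 200 whose level varied least over 21 RNA-seq libraries of Crinum x powellii var Album, an ornamental amaryllid grown from bulbs. They were chosen from the estimated counts of the first of 2 deposited quantifications. Isoform counts were summed per gene and scaled to the library total as CPM, the usual unit for a count relative to its library. Of 676992 genes in the table, 5462 had at least 20 CPM in all 21 libraries. The 200 with the lowest standard deviation (SD) of log2 CPM over the libraries were kept. Because the spread over all libraries chose these genes, their low SD, their small differences between groups and their narrow ranges are given as a description, with no test.

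The libraries were of polyadenylated bulk RNA. Callus, the undifferentiated tissue that forms on explants in culture, came from twin-scale explants, which are pieces cut from the bulb. It was grown with 2,4-D, a synthetic auxin, at 4 or 2 mg/L, with either a 14 h day and a 10 h night or darkness for all 24 h, on medium that also held the cytokinins BAP and kinetin and yeast extract. The callus groups were light with 4 mg/L (n = 3), light with 2 mg/L (n = 3), dark with 4 mg/L (n = 3) and dark with 2 mg/L (n = 2). The organ groups were leaves (n = 3), root (n = 2), basal plate (n = 2), which is the compressed stem below the scales, and bulb (n = 3). The organs came from bulbs that were bought and kept at 4 °C for 4 weeks. The callus titles at the lower dose carry a 3 where the treatment label gives 2 mg/L, and the treatment label is used here. RNA was extracted on kit columns for callus and with CTAB for the organs, so the extraction method and the contrast of callus with organs cannot be told apart. The labels do not state that replicates came from separate plants or cultures, so p-values measure the spread between these libraries.

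Reference genes are genes whose RNA level is taken to be steady, and they are used to put measurements from different samples on a common scale, for example in quantitative PCR. Plant studies often draw them from actins, tubulins, ubiquitins, elongation factors and proteins of RNA handling, and a gene that is steady in one tissue need not be steady in another. Callus and differentiated organs are a demanding pair for this purpose, because growth, division and metabolism differ widely between them. The files pair no gene ID with a name or function, so none is given here, the tissue labels could not be checked against marker genes, and no sequence is printed. The IDs below are as deposited, with their shared start Crpow_TRINITY_ left out.

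Library totals ran from 26403881 to 67502918 estimated counts, with a median of 43251035. The smallest count of any of the 200 genes in any library was 564, which by counting alone gives an SD of 0.06 on the log2 scale. In bulk RNA, fewer cells of a type and less RNA per cell cannot be told apart.

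Under library totals, the scale of the rule, the steadiest gene was DN197_c1_g1, which stayed between 38.6 and 49.3 CPM in all 21 libraries. In callus it had 40.1, 38.6 and 41.7 CPM in light with 4 mg/L, 44.3, 45.9 and 44.5 CPM in light with 2 mg/L, 44.2, 45.8 and 44.6 CPM in dark-grown callus with 4 mg/L, and 44.0 and 47.7 CPM in dark-grown callus with 2 mg/L. In the organs it had 47.5, 41.4 and 47.6 CPM in leaves, 43.8 and 46.2 CPM in root, 49.3 and 38.9 CPM in the basal plate, and 45.5, 47.7 and 46.7 CPM in bulb. The 3 light-grown callus libraries with 4 mg/L, leaves replicate 2 and basal plate replicate 2 were at the low end and basal plate replicate 1 at the high end. Callus and organ values overlapped over nearly their whole ranges. Its SD was 0.10 on the log2 scale and its highest library was 1.28-fold its lowest. Its median was 16.5 TPM, a unit that scales for transcript length as well as for the library. That lay below the lower quartile of the 200 genes, 17.5 TPM. It also lay below the lower quartile of the other genes with at least 20 CPM, 22.6 TPM.

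The next 4 genes by SD held levels nearly as constant. DN8993_c0_g1 had a lowest, median and highest value of 104, 112 and 121 CPM in callus, against 101, 124 and 138 CPM in organs. DN525_c0_g1 had 66.3, 73.2 and 79.5 CPM in callus, against 60.9, 68.4 and 85.3 CPM in organs. In both genes the organ libraries spread more widely than callus and covered the whole callus range. DN9307_c0_g1 had 34.1, 40.3 and 44.9 CPM in callus, against 33.2, 36.4 and 40.1 CPM in organs. DN12348_c0_g1 had 22.2, 24.2 and 28.8 CPM in callus, against 23.1, 26.2 and 30.2 CPM in organs. The groups of these 2 genes overlapped as well, with the medians of DN9307_c0_g1 higher in callus and those of DN12348_c0_g1 lower. DN12348_c0_g1 was 1 of 5 members with a single assembled isoform.

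**Figure D1:**
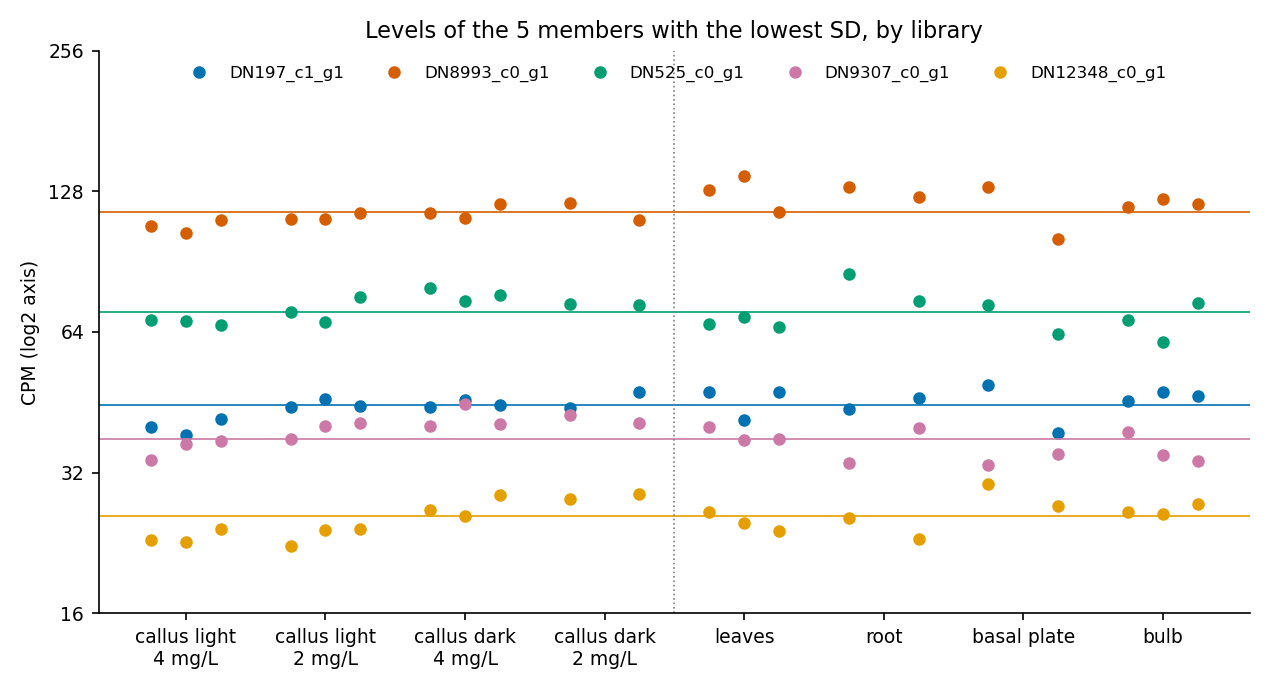
CPM on a log2 axis (vertical) of the 5 genes with the lowest SD in each of 21 libraries, by group (horizontal; the dotted line parts callus on the left from organs on the right). Each point is 1 library and each line the gene's median over the 21 libraries. The highest library of each gene is 1.28-fold to 1.40-fold its lowest, and the lowest point of DN8993_c0_g1, at 101 CPM, is basal plate replicate 2.

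Over all 200 genes the SD of log2 CPM ran from 0.10 to 0.21, with a median of 0.19. The other 5262 genes with at least 20 CPM in every library had a median SD of 0.42. The highest library was between 1.28-fold and 2.04-fold the lowest, with a median of 1.61-fold. It was within 2-fold for 199 of the 200, against 638 of the 5262 other genes. The limit of 200 cut through a continuous range. DN581_c0_g2 and DN33670_c0_g1, the last inside, had SDs of 0.2103 and 0.2106. DN2719_c0_g1 and DN11722_c0_g1, the first outside, had 0.2108 and 0.2110.

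Compared with the other genes of at least 20 CPM, the stable genes had the lower median level. Their median TPM ran from 6.61 to 260.5 TPM, with a median of 25.5 TPM over the 200, against 38.4 TPM over the other 5262 genes. Per transcript length the lowest by mean log2 TPM was DN6302_c0_g2, with 4.48 TPM in its lowest library, a median of 6.61 and 8.47 TPM in its highest. The highest was DN4700_c0_g1, with 103, 261 and 322 TPM. The TPM ranges were wider than the CPM ranges, a difference taken up below. Together the 200 genes took 1.28% to 1.57% of the counts of a library.

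The 200 genes belonged to 200 different assembly components, so no pair was split from 1 component. They had a median of 6 isoforms, against 5 for the other genes. The leading isoform held a median of 51.7% of a gene's counts in the 200, against 58.2% in the others. The length implied by the ratio of counts to TPM, set relative to the median of the 5462 genes, had a median of 1.18 in the 200, against 0.993 in the others. These features were not used by the rule, and the differences in them were not tested.

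Under library totals, drift between callus and organs was small and ran both ways. The difference of mean log2 CPM, callus minus organs, ran from -0.34 to 0.26, with a median of -0.01. The median over the other 5262 genes was -0.10. The mean was higher in callus for 97 of the 200 and lower for 103. The difference lay within 0.1 for 108 of the 200 and within 0.25 for 196. Callus and organ libraries overlapped in each of the 200, and 0 of them had groups that did not overlap, where 6.74% of the 5462 genes had such groups. The rule used these libraries, so nothing is read from that count.

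Of the 4 genes past 0.25, 2 were higher in callus. DN2598_c0_g1 had 61.3, 70.9 and 84.2 CPM in callus, against 51.9, 58.5 and 69.3 CPM in organs (lowest, median, highest). Its difference was 0.26. Light-grown callus had 74.4, 84.2 and 80.5 CPM with 4 mg/L and 70.1, 77.9 and 70.9 CPM with 2 mg/L. All of these lay above every organ library, as did replicate C of dark-grown callus with 4 mg/L, at 73.4 CPM. DN16949_c0_g1 had 35.8, 43.3 and 47.6 CPM in callus, against 27.4, 35.4 and 44.2 CPM in organs, with a difference of 0.25. Its 27.4 CPM was in basal plate replicate 2.

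The other 2 were lower in callus. DN8838_c0_g1 had 48.4, 53.2 and 57.1 CPM in callus, against 53.4, 67.5 and 77.1 CPM in organs, with a difference of -0.34. DN5330_c0_g1 had 67.2, 72.8 and 83.2 CPM in callus, against 79.0, 93.8 and 104 CPM in organs, with a difference of -0.30. For DN8838_c0_g1 the overlap came from basal plate replicate 2 alone, whose 53.4 CPM was the lowest organ value and lay below 5 of the 11 callus values.

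The members also drifted among the 8 groups. For each gene the group mean was set against the gene's mean over all libraries, and the median of this deviation was taken over the 200 genes. It was -0.11 in light with 4 mg/L and -0.05 in light with 2 mg/L, against 0.05 in dark-grown callus with 4 mg/L and 0.09 in dark-grown callus with 2 mg/L. Light-grown callus thus lay below dark-grown callus at both doses for the median gene under library totals. At 2 mg/L this order flipped under other scalings, to 0.01 in light and -0.15 in darkness under TMM and to 0.03 in light and -0.15 in darkness under RLE. In light with 4 mg/L, 20 of the 200 lay more than 0.25 below their own mean and 1 lay above it by that much. In darkness with 2 mg/L, 18 lay above and 1 below. Among the organs the medians were -0.02 in leaves, 0.07 in root, -0.01 in the basal plate and 0.01 in bulb. No group mean of any of the 200 was more than 0.5 from the gene's mean.

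The spread within a group was set beside these differences. The pooled SD between replicates had a median of 0.12 over the 200 genes, and the SD between the 8 group means a median of 0.16. The SD between groups was the larger for 155 of the 200. A mean of 2 or 3 libraries varies less by replicate spread than a single library does. The 2 SDs are thus unlike measures, and the count is no test of group differences. For the other 5262 genes these medians were 0.19 and 0.41. The SD over the 11 callus libraries had a median of 0.15 and that over the 10 organ libraries 0.19. The extremes fell often in a few libraries. Basal plate replicate 2 was the lowest library for 56 of the 200 genes. Basal plate replicate 1 was the highest for 40, replicate C of dark-grown callus at 2 mg/L for 35 and root replicate 1 for 30. Leaving out any 1 library gave a median SD of the 200 between 0.18 and 0.19.

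How steady the members were depended on the scale of measurement. Division by the library total was the scale of the rule. TMM and RLE factors were instead computed over the 138440 genes that passed a filter on low counts. They assume that most of these genes do not change. The median such gene still had a fitted log2 fold change, callus against organs, of 0.34 under TMM and 0.38 under RLE. TPM corrects for transcript length and gives each library the same sum. On each scale the median deviation of the 200 genes from their own means was taken per library. It ran from -0.16 to 0.14 under library totals and from -0.17 to 0.16 under salmon library totals. Under TMM it ran from -0.50 in basal plate replicate 2 to 0.50 in bulb replicate 1. Under RLE it ran from -0.41 to 0.49, and under deposited TPM from -0.82 in basal plate replicate 2 to 0.23.

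The TMM factors of the bulb libraries were between 0.709 and 0.742 and that of basal plate replicate 2 was 1.36, so bulb levels were raised and basal plate levels lowered under TMM. In TPM the 5462 genes with at least 20 CPM took 23.4% of the total of basal plate replicate 2, against 37.5% to 52.2% in the other libraries. In that library the same genes took 52.7% of the counts. What part RNA quality or composition had in these values was not tested.

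**Figure D2:**
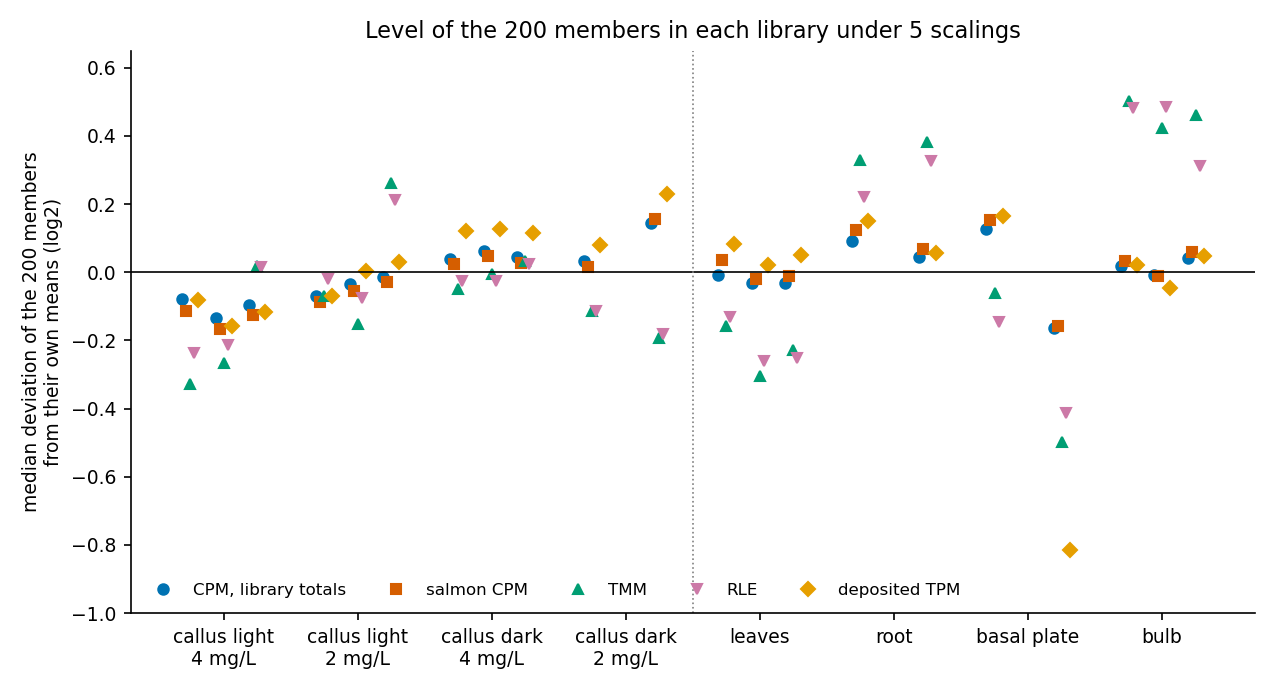
Median over the 200 stable genes of the deviation from their own mean, in log2 units (vertical), in each of 21 libraries by group (horizontal; callus left of the dotted line, organs right of it). Each symbol is 1 library under 1 of 5 scalings. Under library totals of either quantifier the libraries stay between -0.17 and 0.16, TMM and RLE place the 3 bulb libraries between 0.31 and 0.50, and deposited TPM places basal plate replicate 2 at -0.82.

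The spread of the same genes grew accordingly. The median SD of the 200 was 0.32 under TMM, 0.29 under RLE and 0.27 under deposited TPM, against 0.19 under library totals. Without basal plate replicate 2 the TPM value was 0.20. The number of genes within 2-fold over all libraries was 44 under TMM, 74 under RLE and 27 under TPM, against 199 under library totals. After each library's mean shift over the 200 was subtracted, the median SD was 0.17 under library totals, and by construction the same under TMM and RLE, and it was 0.17 under TPM. The callus minus organs difference of the 200 moved with the scale as well. Its median was -0.16 under TMM, with an upper quartile of -0.06, and -0.11 under RLE, with an upper quartile of -0.02. Most members were thus lower in callus on these 2 scales. Under TPM the median difference was 0.07.

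A new choice of 200 genes was made on each scale. From the same 5462 genes it shared 18 genes with the members under TMM, 24 under RLE and 107 under deposited TPM. From the 5102 genes with at least 20 CPM in every library by salmon, it shared 158 under salmon library totals. The sets chosen under TMM and RLE shared 171 genes with each other. A set of 11 members was chosen on all 5 scales. Among these 11, DN4354_c0_g1 had the lowest SD under library totals, at 0.13, with 0.23 under TMM, 0.21 under RLE, 0.22 under TPM and 0.12 under salmon. DN3730_c0_g1 had 0.14, 0.25, 0.21, 0.21 and 0.15, and DN5668_c0_g1 had 0.14, 0.25, 0.21, 0.24 and 0.15 on the same scales in the same order. These 2 genes were picked from the 11 after their values were seen, as the next lowest under library totals. DN197_c1_g1, the steadiest under library totals, was not among the 11. Its SD was 0.31 under TMM, 0.27 under RLE, 0.22 under TPM and 0.11 under salmon.

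Ratios between members do not depend on the scale of the library. The SD over 21 libraries of the log2 ratio of a pair of members had a median of 0.23 over 19900 pairs and ran from 0.07 to 0.39. Among the 5 genes that were steadiest by both quantifiers, it ran from 0.09 to 0.17. Those 5 were DN197_c1_g1, DN9307_c0_g1, DN4354_c0_g1, DN11093_c0_g1 and DN13439_c0_g1. The mean log2 level of the 5 had an SD of 0.08 under library totals, 0.08 under salmon library totals, 0.26 under TMM and 0.21 under TPM.

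The last 3 of these 5 have not yet been given by library type. DN4354_c0_g1 had 44.0, 49.8 and 56.3 CPM in callus, against 39.6, 45.5 and 49.9 CPM in organs (lowest, median, highest). DN11093_c0_g1 had 109, 129 and 139 CPM in callus, against 112, 125 and 152 CPM in organs. DN13439_c0_g1 had 50.8, 57.6 and 68.9 CPM in callus, against 47.4, 52.2 and 60.5 CPM in organs. Callus and organ values overlapped in all 3, and the difference of mean log2 CPM was 0.14, 0.01 and 0.11 in that order.

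At the level of gene counts, callus and organs were also compared with edgeR's quasi-likelihood test, with TMM scaling and Benjamini-Hochberg adjustment over 138440 genes. It called 52 of the 200 at an adjusted p under 0.05, which is 26%, all lower in callus. Of all tested genes 49.8% were called, 32.5% higher in callus and 17.2% lower. Of the 5462 genes 62.5% were called, 14.7% higher and 47.7% lower. Because the rule used this contrast, nothing is read from the members' count. The median fitted log2 fold change was -0.16 for the members, -0.24 for the 5462 genes and 0.34 for all tested genes. With library totals in place of TMM the test called 36 members (18%), 11 higher in callus (5.5%) and 25 lower (12.5%). It then called 51.5% of all tested genes, 36.8% higher and 14.7% lower, and 67.3% of the 5462, 25.9% higher and 41.4% lower. The members' median log2 fold change was then -0.02, against 0.47 for all tested genes. The TMM count was 29 without basal plate replicate 1, 30 without bulb replicate 1, 32 without root replicate 3 and 76 without basal plate replicate 2. Of all tested genes, 49.3%, 48.8%, 45.9% and 51.5% were called in those fits, in the same order.

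The 4 members with the most extreme differences of CPM were picked for this contrast, so their fitted values are given with no test. The fitted log2 fold change was -0.47 (SE 0.11) for DN8838_c0_g1, -0.43 (SE 0.10) for DN5330_c0_g1, 0.09 (SE 0.11) for DN2598_c0_g1 and 0.09 (SE 0.10) for DN16949_c0_g1.

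The salmon tables, which count the same reads with another program, gave the members nearly the same profile. They are a second method on the same libraries and no replicate. Pearson's r between the log2 CPM of both quantifiers over the 21 libraries had a median of 0.983 over the 200 genes and ran from 0.748 to 0.997, as a description. The other 5262 genes, whose levels vary more, had a median of 0.997. The median SD was 0.19 by the first quantifier and 0.19 by salmon. Of the 200 genes, 177 also had at least 20 CPM in every library by salmon, and 158 (79%) were among salmon's own 200 of lowest SD. The sign of callus minus organs was the same by both for 177 of the 200, with a median of -0.01 by the first quantifier and -0.06 by salmon.

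The quantifiers gave different levels for many members. The mean log2 CPM by the first quantifier minus that by salmon had a median of 0.21 over the 200, against 0.22 over the other genes, and it was positive for 157 of the 200. DN15082_c0_g1 had the largest positive difference, 0.45, with 47.9 to 84.1 CPM by the first quantifier and 36.2 to 60.6 CPM by salmon. Its profile was nearly the same by both, with r of 0.987.

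DN4700_c0_g1 was the exception, with the only difference over 0.5 in size. By the first quantifier it had 99.6, 115 and 128 CPM in callus and 85.4, 111 and 136 CPM in organs (lowest, median, highest). By salmon its median over the 21 libraries was 190 CPM, with a range of 113 to 240 CPM. The difference of the quantifiers was -0.69 and r was 0.748, the lowest of the 200. Its SD was 0.17 by the first quantifier and 0.24 by salmon, where it ranked 401. Callus minus organs was 0.06 by the first quantifier and 0.34 by salmon. It was also the member with the highest TPM, so the most abundant member per length was not among salmon's 200 of lowest SD.

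**Figure D3:**
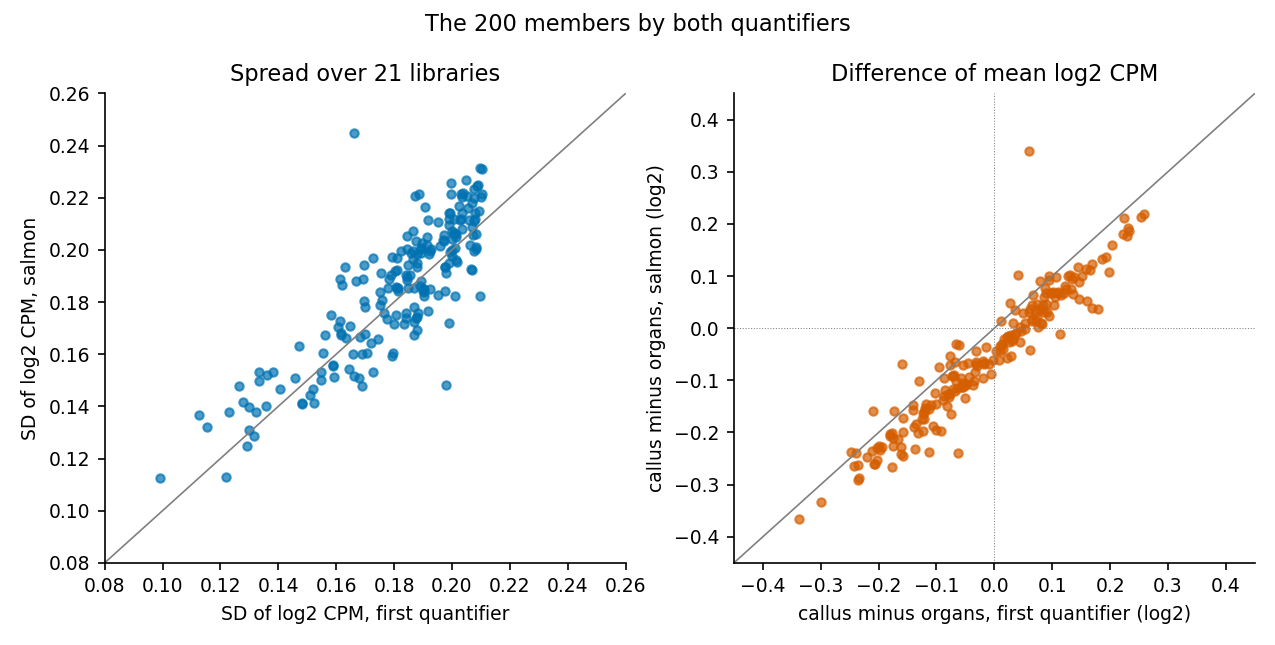
Left, SD of log2 CPM over 21 libraries of each of the 200 genes by the first quantifier (horizontal) and by salmon (vertical). Right, the difference of mean log2 CPM, callus minus organs, on the same axes in log2 units. Each point is 1 gene and the grey line marks equal values. The point far above the line in both panels is DN4700_c0_g1, with SDs of 0.17 and 0.24 and differences of 0.06 and 0.34.

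A choice made on part of the libraries was tried on the rest, to show how far steadiness carried over. The rule applied to the 11 callus libraries alone gave 200 genes with a median SD of 0.09 there and 0.33 in the 10 organ libraries, which it did not use. All 7153 genes with at least 20 CPM in every callus library had a median SD of 0.42 in the organs. Of the 200 chosen in callus, 35 fell under 20 CPM in an organ library and 29 were among the members. The rule applied to the organs alone gave 200 genes with a median SD of 0.14 there and 0.22 in callus, against 0.30 in callus for all 6371 genes eligible in organs. Of these, 28 fell under 20 CPM in a callus library and 63 were members. In the libraries not used, the genes chosen in either tissue type were thus less variable by median than the eligible genes as a whole, and more variable than where they were chosen.

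Isoform shares changed between callus and organs in many of the stable genes. The rule used the total per gene and not the share of a gene's counts that each isoform takes. An isoform that changes alone moves both, so the shares are not fully free of the rule. They could still be tested. This was done with limma on the log2 odds of each isoform's share, with 1 Simes p-value per gene and Benjamini-Hochberg adjustment over 44447 genes, and 195 of the 200 had at least 2 isoforms to test. Between callus and organs, 141 of the 195 changed in isoform shares at an adjusted p under 0.05, which is 72.3%, where 39.1% of all tested genes and 74.5% of the 5462-gene pool with isoforms to test were called. The members' share was thus near that of the genes of like level. A second test, edgeR's diffSpliceDGE with Simes p-values, called 75 of the 195 (38.5%), where 21.4% of all tested genes and 45.4% of the genes with at least 20 CPM were called.

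The counts were lower in the other 2 contrasts. Between light-grown and dark-grown callus, 45 of the 195 changed (23.1%), where 9.62% of all tested genes and 26.7% of the genes with at least 20 CPM were called. The diffSpliceDGE test called 12 of the 195 (6.15%), where 3.3% of all tested genes and 8.88% of the genes with at least 20 CPM were called. With replicate A of dark-grown callus at 2 mg/L left out, the limma count was 28 (14.4%). Of the genes with at least 20 CPM, 18.0% were then called. Between leaves and bulb, 93 of the 195 changed (47.7%), where 23.1% of all tested genes and 50.3% of the genes with at least 20 CPM were called. The diffSpliceDGE test called 49 of the 195 (25.1%), where 7.62% of all tested genes and 21.4% of the genes with at least 20 CPM were called. In both contrasts the share of members called was near that of the other well-expressed genes. By limma, 164 members (84.1%) were called in at least 1 of the 3 contrasts, where 86.5% of the genes with at least 20 CPM were. Calls in all 3 contrasts numbered 24 (12.3%), where 14.1% of those genes had them, and 31 members (15.9%) had no call, where 13.5% of those genes had none.

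**Figure D4:**
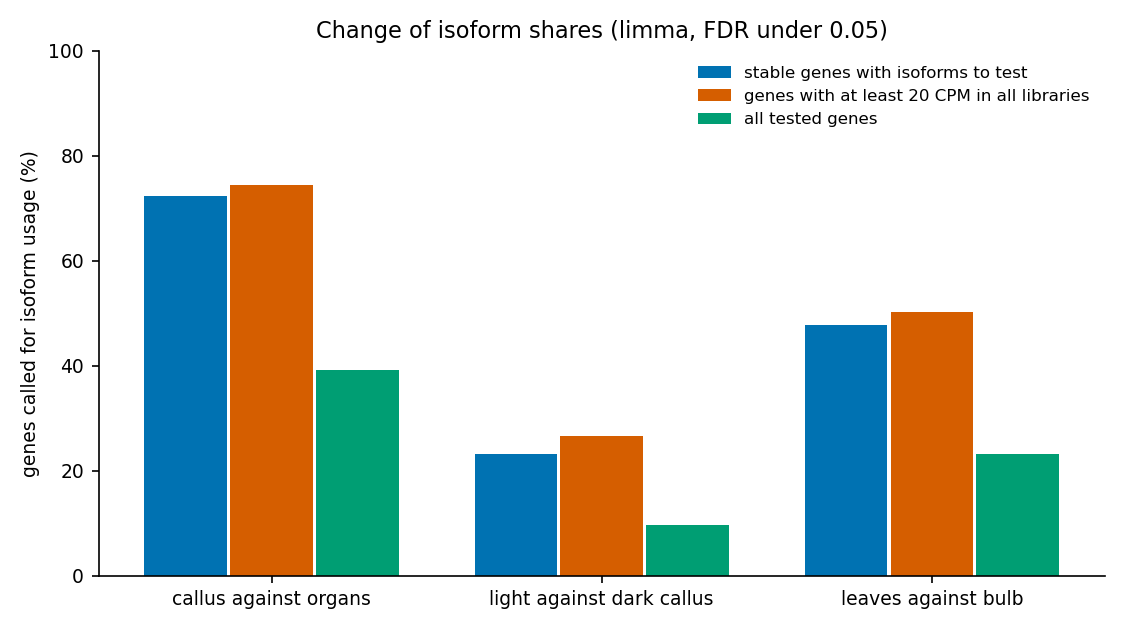
Percent of genes (vertical, from 0) whose isoform shares changed at an adjusted p under 0.05 (limma) in each of 3 contrasts (horizontal), for the 195 stable genes with isoforms to test, for genes with at least 20 CPM in all libraries and for all tested genes. The bars of the stable genes, at 72.3%, 23.1% and 47.7%, stand close to those of the genes with at least 20 CPM, at 74.5%, 26.7% and 50.3%.

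For the median gene, called or not, the change in shares was small. The largest change of any isoform's mean share had a median over the 195 genes of 5.75 percentage points between callus and organs, 3.84 between light and dark callus and 6.98 between leaves and bulb. The same medians over the genes with at least 20 CPM were 5.75, 4.02 and 6.52. Changes that were called and reached 10 points numbered 40 between callus and organs (20.5% of the members, against 23.9% of the genes with at least 20 CPM), 14 between light and dark callus (7.18% against 9.98%) and 50 between leaves and bulb (25.6% against 24.5%). Those that reached 20 points numbered 2 (1.03% against 5.36%), 1 (0.513% against 1.58%) and 9 (4.62% against 5.65%) in the same order of contrasts. The leading isoform was a different one in the 2 groups for 24 members (12.3% against 14.4%), 20 members (10.3% against 10.2%) and 26 members (13.3% against 13.1%). These shares were not tested against each other.

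In each contrast the gene named below was picked among the called members, so its adjusted p was under 0.05 by choice. DN3129_c0_g1 had the largest change between callus and organs, with totals whose ranges overlapped. Its total had a lowest, median and highest value of 66.5, 71.9 and 97.0 CPM in callus, against 68.7, 75.7 and 99.9 CPM in organs. Its fitted log2 fold change by edgeR was -0.27. The gene's callus minus organs difference of mean log2 level was -0.11 in CPM but 0.33 in deposited TPM. Of its 2 tested isoforms, i3 took 33.5%, 41.5% and 66.0% of the counts in callus, against 17.9%, 20.6% and 39.0% in organs. The mean over groups was 47.6% in callus and 24.3% in organs, a difference of 23.3 points (log2 odds 1.54, SE 0.16, adjusted p = 1.15e-06, limma). The share was highest in dark-grown callus, between 49.3% and 66.0%, and lower in light-grown callus, between 33.5% and 41.5%. Leaves replicate 3, at 39.0%, was the one organ library within the callus range.

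DN47028_c0_g1 had the largest change between light and darkness. Its isoform i4 took 41.5%, 27.5% and 18.3% of the counts in light with 4 mg/L and 62.4%, 54.0% and 60.1% in light with 2 mg/L. It took 65.3%, 67.9% and 58.8% in dark-grown callus with 4 mg/L and 62.5% and 73.1% in dark-grown callus with 2 mg/L. The low values were those of light with 4 mg/L, while light with 2 mg/L overlapped darkness. The mean over groups was 44.0% in light and 65.9% in darkness (log2 odds -1.38, SE 0.24, adjusted p = 0.00778, limma). The call was lost with salmon counts (adjusted p = 0.0554), with diffSpliceDGE (adjusted p = 0.789 by Simes and 0.121 by its F test) and when replicate C of dark-grown callus at 2 mg/L was left out (adjusted p = 0.0526).

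DN6264_c0_g1 had the largest change between leaves and bulb. Its isoform i11 took 7.13%, 7.55% and 16.4% of the counts in leaves, against 26.0%, 36.8% and 55.1% in bulb, with no overlap. The mean was 10.4% in leaves and 39.3% in bulb (log2 odds -2.55, SE 0.51, adjusted p = 0.00988, limma). By limma the adjusted p was 0.0498 without leaves replicate 2 and 0.0499 without bulb replicate 3. By diffSpliceDGE with Simes p-values it was 0.0448. A second isoform, i10, took 16.5%, 15.8% and 24.9% in leaves, against 2.56%, 7.59% and 5.81% in bulb. The total of the gene was 27.2, 31.6 and 33.7 CPM in leaves, against 30.7, 32.4 and 30.2 CPM in bulb.

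**Figure D5:**
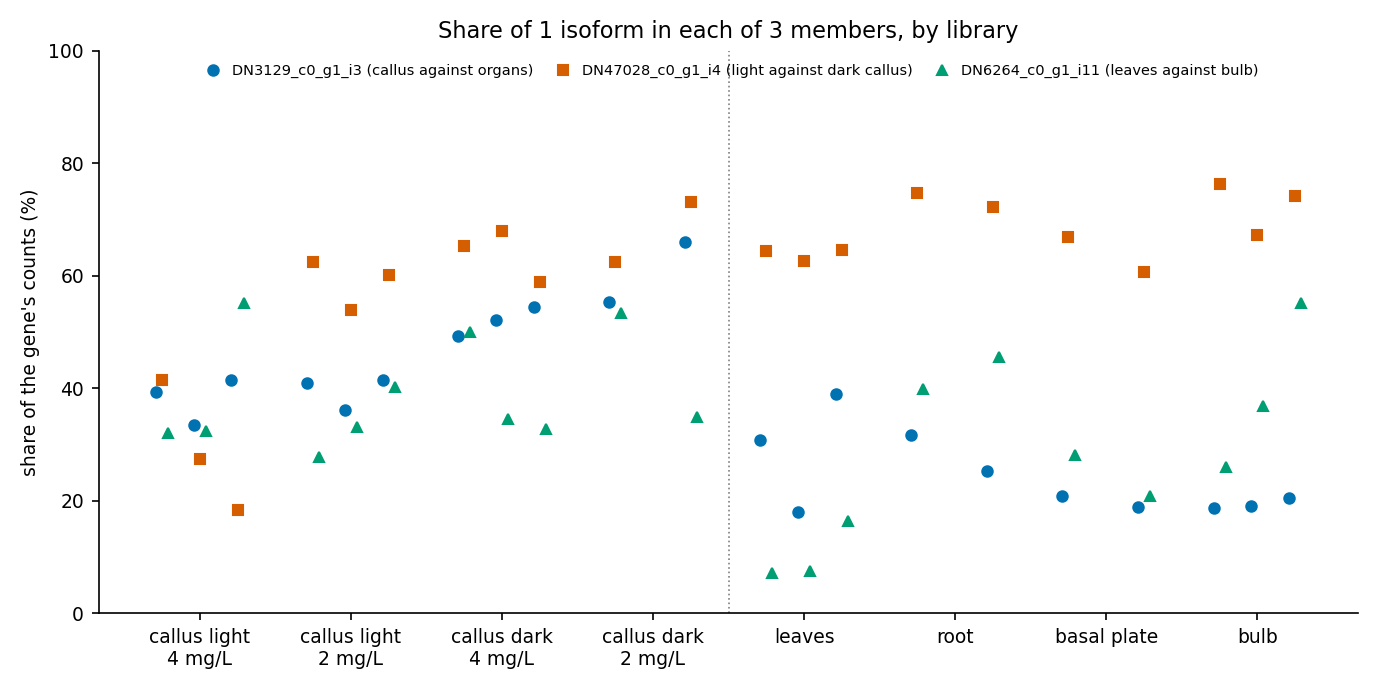
Share of the gene's counts in percent (vertical) taken by 1 isoform of each of 3 stable genes in each of 21 libraries, by group (horizontal; callus left of the dotted line, organs right of it). Each symbol is 1 library. The isoform of DN3129_c0_g1 is higher in callus, that of DN47028_c0_g1 is low in light-grown callus with 4 mg/L, at 18.3% to 41.5%, and that of DN6264_c0_g1 is low in leaves, at 7.13% to 16.4%.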

How the data were processed

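RNA-seq of 21 libraries was quantified by the authors and deposited as estimated counts per isoform and as TPM per gene, once from salmon per the file names and once from a program not named there. The submitters' processing notes list fastp 0.23.4, kallisto 0.46.1 and Salmon 1.4.0, with no role given. Per the series' design text, the reads were placed on a single assembled transcriptome. The deposited gene tables named as counts were not used.

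The members and all lists were chosen with earlier results of these data known. Isoform counts were summed per gene by the assembler's gene ID and rounded for tests. Tests used edgeR 4.0.16, limma 3.58.1 and DESeq2 1.42.0 in R 4.3.3, on all 21 libraries in 1 fit of 8 groups, with filterByExpr and a threshold of 0.05 on adjusted p. The contrast of callus and organs set the mean of 4 callus groups against the mean of 4 organ groups. The isoform test set as the main one, diffSpliceDGE with Simes p-values, made mostly false calls when tested on simulated data with known answers. It was replaced by limma on log2((isoform + 0.5)/(rest of the gene + 0.5)) with a trend on mean abundance and robust moderation, chosen after seeing the data, and its own counts are printed beside the limma counts. The simulated isoforms were drawn independently, with no differences between groups apart from the seeded ones. The simulation therefore cannot show which test is right for these data. Isoform shares rest on how a quantifier divides reads among similar isoforms, which the simulation did not copy.

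Genes were named by rule: the 5 lowest SDs, the last 2 inside and first 2 outside the limit, extremes of TPM, of callus minus organs and of the difference of the quantifiers, the 5 steadiest by both quantifiers, and the largest called share change per contrast. Alternatives were other scalings, minimum levels, spread measures, filters, tools and the salmon tables, a replicate block, and each library left out in turn.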

Additional observations from a re-analysis of the deposited data

Results flagged for a closer look

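Among 29 values examined over the 10 organ libraries, 3 stood apart from the rest by the gap to the nearest library relative to the range. For independent draws from a single normal distribution, chance gives about 1 in 20. The organ libraries are of 4 tissues and the values examined are not independent of each other, so that rate does not hold here. The median deviation of the 200 stable genes under deposited TPM was -0.82 in basal plate replicate 2, and the next organ library was at -0.05, a gap of 0.785 of the range. Under salmon TPM it was -0.66 in the same library, with a gap of 0.721. In that library the genes with at least 20 CPM took 23.4% of TPM and 52.7% of counts. The third was the log2 CPM of DN11722_c0_g1, the second gene outside the limit of 200, which was 5.31 in root replicate 1 with the next organ library at 4.97, a gap of 0.471 of the range.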

How the results depend on the processing

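The choice of members changed with the scaling, the minimum level and the libraries used. Under TMM, RLE and deposited TPM, the 200 chosen shared 18, 24 and 107 genes with the members, the members' median SD was 0.32, 0.29 and 0.27, their median callus minus organs difference was -0.16, -0.11 and 0.067, and 44, 74 and 27 lay within 2-fold. The set shared 80 genes with the rule at a minimum of 50 CPM, 29 with callus alone and 63 with organs alone. It shared 151 to 194 under salmon, a minimum of 10 CPM, the range, group means and log2(CPM + 1). Leaving out 1 library, the shared genes ran from 158 to 195, the median SD from 0.18 to 0.19, the difference from -0.03 to 0.00, genes within 2-fold from 199 to 200 and the median r from 0.981 to 0.984.

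The counts of members called between callus and organs follow, with the percent of all tested genes called in brackets. The edgeR count was 52 (49.8%). It was 44 with RLE (50.7%), 61 with DESeq2 (52.8%) and 73 with salmon counts (49.8%), all lower in callus. Without a filter on low counts edgeR called 0 (9.52%), so calls fell over the whole table. At an unadjusted p under 0.05 it had 8 members, against 71 with the filter. The percent of all tested genes at that threshold is not given, and the rule used this contrast. Nothing is therefore read from these counts. Without 1 library the member count ran from 29 to 76, and the percent of all tested genes from 45.0% to 51.5%. Members changed in isoform usage are given for callus against organs, light against dark callus and leaves against bulb, in that order. By limma they numbered 141, 45 and 93, where 74.5%, 26.7% and 50.3% of the genes with at least 20 CPM were called. By diffSpliceDGE with Simes p-values they numbered 75, 12 and 49, where 45.4%, 8.88% and 21.4% of those genes were called. Its F test called 126, 28 and 92 members (64.6%, 14.4% and 47.2%), where 65.9%, 16.8% and 42.4% of those genes were called. Without 1 library the limma counts of members were 129 to 140, 28 to 48 and 64 to 101. The percent of those genes called then ran from 68.8% to 75.5%, 18.0% to 28.5% and 38.8% to 53.3%.

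Deviations of libraries with the same replicate label correlated between -0.43 and 0.51, with a median of 0.01. Those with different labels correlated between -0.40 and 0.43, with a median of -0.005. The deviations are from means of 2 or 3 libraries, so libraries of a group mirror each other. These values therefore cannot decide whether replicate labels pair the libraries. With a replicate block 50 members were called at gene level, where 48.8% of all tested genes were. For isoform usage 128, 35 and 84 members were called (65.6%, 17.9% and 43.1%), in the same order of contrasts as above. Of the genes with at least 20 CPM, 72.1%, 21.5% and 45.5% were called. Counting error at the smallest member count, 564, has an SD of 0.06 (log2), against a median SD between replicates of 0.12.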
